A study of Rattus norvegicus with 16 samples.

Results

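The enzymes of fatty acid oxidation were followed in epididymal white adipose tissue (EWAT), the fat pad along the epididymis, of 30-day-old male rats. The 9 genes are Cpt1a, Cpt1b, Cpt2, Acadm, Acadl, Acadvl, Hadha, Hadhb and Ehhadh. They were found through the RefSeq accession that the array's annotation gives for each probe. All 9 were on the array, with 11 probes (Cpt1b and Hadha have 2 each), among 15168 genes that could be named. Each of the 11 probes was well above background on all 16 arrays, so none was lost to the filter on dim probes, which 11592 named genes passed.

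HFT animals were sons of dams fed a high-fat diet (5.24 kcal per g) and given, through pregnancy and lactation, a daily oral dose of 25 mg per kg body weight of GSPE, a grape seed procyanidin extract, in low-fat condensed milk. HF animals were sons of dams on the same high-fat diet given the milk alone. Both groups kept eating their mothers' diet up to day 30 and were killed while feeding freely. Each group held 8 animals with 1 array each, and animals are called here by group and label number. The arrays come from whole fat pads, so fewer cells of a type and less RNA per cell cannot be told apart. No label ties an animal to its dam, so littermates, if any, entered the tests as independent animals.

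Mitochondrial fatty acid oxidation starts when a long-chain acyl-CoA is bound to carnitine on the outer membrane by a carnitine palmitoyltransferase I, carried inward and set free again by carnitine palmitoyltransferase II. Inside, acyl-CoA dehydrogenases open each round of the spiral and the trifunctional protein performs the later steps for long chains. White fat mainly stores and releases fatty acids, whereas brown and beige fat cells burn them, and their uncoupling protein, encoded by Ucp1, lets the energy leave as heat. Cpt1a is the isoform usually called the liver type and Cpt1b the muscle type, which brown fat also uses.

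Levels are log2 of the processed spot intensity minus the array's own 75th percentile, so 0 is the brightness that 75% of the spots do not reach. Probes differ in how strongly they bind, so levels are compared between animals and never between genes. The 75th percentile itself lay between 753 and 1366 intensity units, and between 68.3% and 73.5% of the probes were well above background on an array. All 12 adipocyte marker genes on the array (Adipoq and Lep among them) were above background on all 16 arrays. Marker genes of other tissues were high on 9 of the 16 arrays. By the summed level of 14 genes of the epididymal epithelium, HFT 23, HFT 28 and HF 8 exceeded the median array by 5.42, 5.88 and 5.88 log2 units, with the other arrays between -0.53 and 0.46. By the median of 8 urothelial genes, HFT 22, HFT 24 and HF 35 exceeded it by 6.59, 7.27 and 7.49, and the next highest array, HF 9, stood at 1.46. By the median of 9 smooth muscle genes HF 9 exceeded it by 3.45, with HF 35 next at 1.42. By the median of 15 hepatocyte genes HFT 36 and HF 10 exceeded it by 3.29 and 3.899, with HFT 23 next at 2.56. Results are given with and without these arrays where they depend on them.

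Promoters are shown for 4 members that differ in their calls in the test on Ucp1: Acadm and Acadvl passed it, and Hadhb and Cpt1a did not. Windows run from 250 bases before to 50 after the RefSeq start on build GRCr8, 5′ to 3′ on the gene's strand, and 7 of the 9 members have one; Cpt1b and Acadl are named only. Capitals mark AGGTCA, the half-site of many nuclear receptors, or GGGCGG, the core of the GC box, each on either strand, and no base is in both.
Acadm, chr2:245542815-245543114, minus strand: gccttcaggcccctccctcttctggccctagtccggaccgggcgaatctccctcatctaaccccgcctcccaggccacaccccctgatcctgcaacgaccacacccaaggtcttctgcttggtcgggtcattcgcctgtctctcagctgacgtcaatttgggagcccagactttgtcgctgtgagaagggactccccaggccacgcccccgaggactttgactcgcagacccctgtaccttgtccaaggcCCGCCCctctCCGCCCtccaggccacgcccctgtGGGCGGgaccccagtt
Acadvl, chr10:55236656-55236955, minus strand: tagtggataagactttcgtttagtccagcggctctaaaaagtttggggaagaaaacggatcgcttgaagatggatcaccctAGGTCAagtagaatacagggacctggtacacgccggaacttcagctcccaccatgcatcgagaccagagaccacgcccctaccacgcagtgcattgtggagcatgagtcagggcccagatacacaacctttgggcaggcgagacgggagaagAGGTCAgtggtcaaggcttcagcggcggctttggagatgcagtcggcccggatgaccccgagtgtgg
Hadhb, chr6:31907451-31907750, minus strand: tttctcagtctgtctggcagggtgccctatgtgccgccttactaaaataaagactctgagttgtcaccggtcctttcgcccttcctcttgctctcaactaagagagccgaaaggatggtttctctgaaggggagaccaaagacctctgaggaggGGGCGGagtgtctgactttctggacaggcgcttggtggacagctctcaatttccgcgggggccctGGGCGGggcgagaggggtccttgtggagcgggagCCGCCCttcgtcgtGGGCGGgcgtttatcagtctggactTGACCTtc
Cpt1a, chr1:209995910-209996209, plus strand: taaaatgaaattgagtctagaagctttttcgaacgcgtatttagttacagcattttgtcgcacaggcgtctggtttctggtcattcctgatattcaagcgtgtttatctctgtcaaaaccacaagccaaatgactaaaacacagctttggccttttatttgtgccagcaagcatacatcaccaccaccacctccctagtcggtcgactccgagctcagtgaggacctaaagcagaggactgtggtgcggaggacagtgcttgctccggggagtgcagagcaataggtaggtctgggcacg
The window of Acadvl held AGGTCA at 2 places and that of Hadhb at 1, which makes 2 of the 7 member windows, against 16.2% of the 33469 rat windows. GGGCGG stood in 5 of the 7, against 33.1% of all windows: 3 times in Acadm, 3 in Cpt2, 4 in Hadhb, 1 in Hadha and 1 in Ehhadh. The Cpt1a window held neither. The windows of Hadha and Hadhb, which start back to back on chromosome 6 in opposite directions, share 200 bases. The GGGCGG match of Hadha lies in these bases and is the same site as 1 of the 4 in Hadhb. It is counted in both windows. A longer form of the half-site, TNAAGGTCA, which contains AGGTCA, was in 0 of the 7, against 1.2% of all windows. These are matches of letters and not measured binding.

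The first comparison asks whether the extract given to the dams changed these enzymes in their sons. No member passed the test, and every difference was smaller than the spread between animals. In limma's fit across 21808 probes with Benjamini-Hochberg adjustment, 0 probes of the array passed an adjusted p of 0.05 (0% of the array), and 515 (2.36%) had an unadjusted p under 0.05. Of the 9 members, 0 passed by either measure. The HFT minus HF difference was below 0 for 8 members and above 0 for Cpt1a, with a median of -0.05 log2 units, against -0.02 over all probes. Of the 21808 probes 12250 were below 0. Without all arrays high for epididymal or urothelial genes, 8 of the 9 members were above 0, and again 0 passed. HFT and HF animals overlapped for every member, as they did for every probe of the array (0% without overlap).

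**Figure D1:**
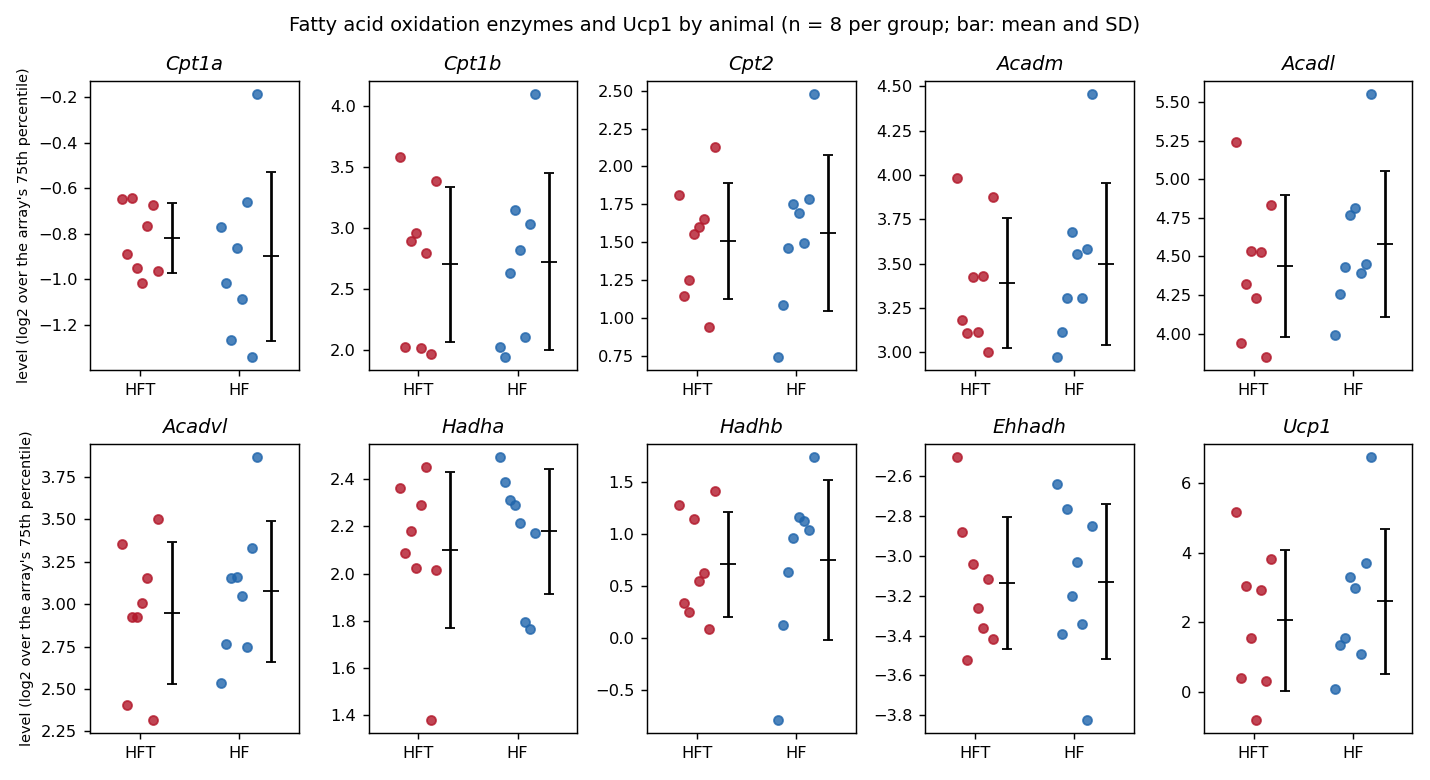
Level of each enzyme and of Ucp1 (log2 over the array's 75th percentile) in the 8 HFT and 8 HF animals; points are animals, bars the mean and SD, and each panel has its own axis. The groups overlap in all 10 panels, and for Cpt1b the HFT animals span 1.97 to 3.58 and the HF animals 1.94 to 4.10.

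Among the carnitine palmitoyltransferases, Cpt1b had a lowest, median and highest level of 1.97, 2.84 and 3.58 in HFT animals, against 1.94, 2.72 and 4.10 in HF animals. Cpt1a ran from -1.01 through a median of -0.83 to -0.64 in HFT animals, against -1.34, -0.94 and -0.19 in HF animals. For both isoforms the HF animals had the wider range. The HFT minus HF difference was -0.02 ± 0.32 for Cpt1b (SE, 95% interval -0.70 to 0.66) and 0.08 ± 0.14 for Cpt1a (-0.21 to 0.37), with a limma adjusted p of 1 for both. These Cpt1b values are from its brighter probe. The second Cpt1b probe gave -0.25 ± 0.31 (SE, 95% interval -0.92 to 0.41). Cpt2, the inner-membrane enzyme, ran from 0.94 through 1.58 to 2.13 in HFT animals and from 0.75 through 1.59 to 2.48 in HF animals, a difference of -0.05 ± 0.22.

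The isoforms were also compared within each animal, since a difference taken within 1 array is free of that array's scaling. This value shows unequal change and not a ratio of mRNA amounts. Cpt1a minus Cpt1b averaged -3.52 ± 0.63 in HFT animals and -3.62 ± 0.67 in HF animals (SD, n = 8 each). The groups differed by 0.10 log2 units (95% interval -0.55 to 0.75; two-sided exact permutation test, p = 0.745). The difference lay within the spread between animals. The sign of this difference turned in the fits without the epididymal arrays, where it was -0.03 without HFT 23, HFT 28 and HF 8.

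Of the acyl-CoA dehydrogenases, Acadm acts on medium, Acadl on long and Acadvl on very long chains. Acadm had a lowest, median and highest level of 3.003, 3.31 and 3.98 in HFT animals, against 2.97, 3.43 and 4.46 in HF animals. Acadl had 3.85, 4.43 and 5.25 in HFT animals, against 3.99, 4.44 and 5.55 in HF animals. Acadvl had 2.32, 2.96 and 3.50 in HFT animals, against 2.53, 3.103 and 3.87 in HF animals. For each of the 3 the HF range lay slightly higher at its upper end, where HF 35 had the highest level. The differences were -0.11 ± 0.20, -0.15 ± 0.22 and -0.13 ± 0.20 for Acadm, Acadl and Acadvl (SE), all within the spread between animals.

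Hadha and Hadhb encode the alpha and beta subunits of the trifunctional protein. The brighter Hadha probe ran from 1.38 through 2.13 to 2.45 in HFT animals, against 1.77, 2.25 and 2.49 in HF animals. Hadhb ran from 0.08 through 0.59 to 1.41 in HFT animals, against -0.78, 1.002 and 1.74 in HF animals. HF 8 was the lowest animal for Hadhb and HFT 28 the lowest for Hadha; both are among the arrays with epididymal genes. The differences were -0.08 ± 0.15 for Hadha and -0.04 ± 0.31 for Hadhb (SE). Ehhadh, the bifunctional enzyme of peroxisomal oxidation, had -3.52, -3.19 and -2.50 in HFT animals and -3.82, -3.11 and -2.64 in HF animals, a difference of -0.01 ± 0.17.

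Every slide held 2 HFT and 2 HF animals, always at the same positions, so a slide effect can be separated from the groups whereas position cannot be told apart from them. Within slides the HFT minus HF difference of Cpt1b was 0.82, 0.04, -0.47 and -0.48, so its sign was not the same on the 4 slides. That of Hadhb was 1.13, -0.10, -0.83 and -0.37. That of Cpt1a was 0.13, 0.27, 0.03 and -0.10. None of the 3 genes had the same sign on all 4 slides.

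The second comparison asks which of the enzymes follow Ucp1 from animal to animal. Ucp1 itself varied widely in both groups. It had a lowest, median and highest level of -0.80, 2.23 and 5.18 in HFT animals, against 0.09, 2.27 and 6.75 in HF animals, a 187-fold range over the 16. Its HFT minus HF difference was -0.54 (95% interval -2.58 to 1.49; limma adjusted p = 1). Each probe was fitted on the Ucp1 level of the same array, with group as a term, over the other 21807 probes. A slope is the change in log2 units per log2 unit of Ucp1.

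Cpt1b, Acadm, Acadl and Acadvl rose with Ucp1, and no member fell. With slide as a block only Cpt1b of the 4 passed (slope 0.30, limma adjusted p = 0.0119). In the whole array 25 probes passed an adjusted p of 0.05 as higher with Ucp1 (0.115%) and 3 as lower (0.0138%). The 4 genes are 4 of the 9 members, and 5 of the 25 probes were theirs, as both Cpt1b probes passed. Over the 9 members the median slope was 0.17, against 0.00 over all probes. All 9 were above 0, as were 11343 of the 21807 probes. At an unadjusted p under 0.05 there were 6 of the 9 members and 3039 of the 21807 probes.

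**Figure D2:**
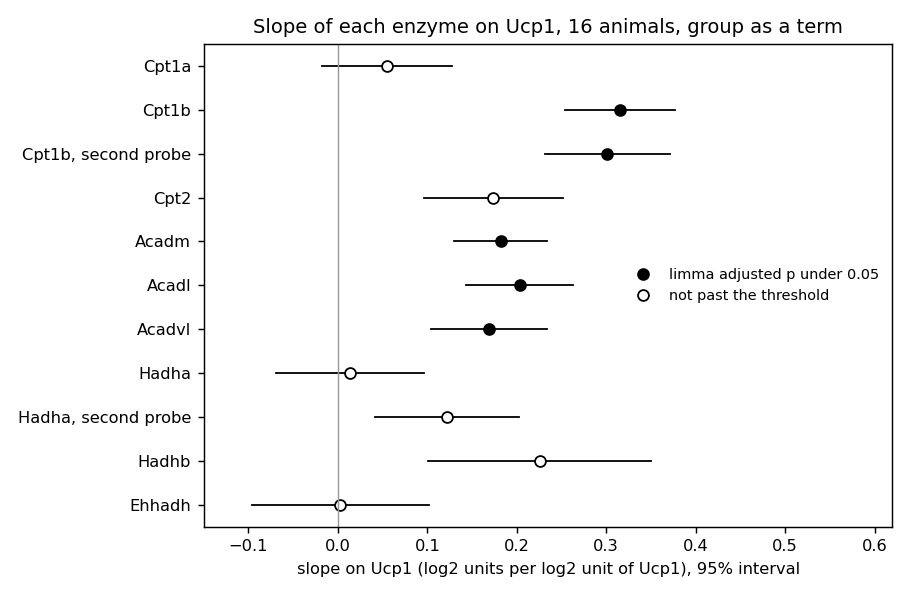
Slope of each enzyme probe on Ucp1 (log2 units per log2 unit of Ucp1; points with 95% intervals, 16 animals, limma with group as a term), filled where the adjusted p over the array was under 0.05. Both Cpt1b probes lie near 0.3, the 3 acyl-CoA dehydrogenases between 0.17 and 0.20, and Cpt1a, Ehhadh and the brighter Hadha probe have intervals that include 0.

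Cpt1b had the steepest slope, 0.32 ± 0.03 (SE; 95% interval 0.25 to 0.38; limma adjusted p = 1e-04). It stayed between 1.94 and 2.10 in the 6 animals of lowest Ucp1 (HFT 26, HF 8, HFT 28, HFT 23, HF 13 and HF 9), and it was highest in the animals of highest Ucp1, at 3.58 in HFT 22 and 4.10 in HF 35. Over the 16 animals Pearson's r with Ucp1 was 0.943 (permutation p = 1e-05, the smallest that 100000 resamples can give) and Spearman's rho 0.909 (p = 2e-05). Without HF 35 and HFT 26, the 2 animals farthest from the median Ucp1, r was 0.919. Within the groups r was 0.938 in HFT animals (exact permutation p = 0.000819, n = 8) and 0.962 in HF animals (exact p = 0.000372, n = 8). By r, Cpt1b ranked 3 among 11591 named genes. Its second probe had a slope of 0.30 (adjusted p = 0.000772) and r of 0.928.

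Cpt1a did not follow Ucp1 past the threshold. Its slope was 0.06 ± 0.03 (SE; 95% interval -0.02 to 0.13; limma adjusted p = 0.481), with r of 0.370 (permutation p = 0.162) and rho of 0.165 (p = 0.545). Without the 2 farthest animals, HF 35 and HFT 26, r was -0.0945, and without HF 35 alone the slope was -0.0031. The Cpt1a level of HF 35, -0.19, was the highest of all. Within the groups r was 0.456 in HFT animals, which do not include HF 35 (exact permutation p = 0.252, n = 8), and 0.419 in HF animals (exact p = 0.301, n = 8). The slopes of both isoforms differed. Cpt1b minus Cpt1a within each animal rose by 0.26 per log2 unit of Ucp1 with no group term (r = 0.823, permutation p = 8e-05). The 95% interval of this slope, from limma with group as a term, was 0.16 to 0.36. Cpt1b minus Cpt1a was 4.23 in HFT 22 and 4.29 in HF 35, and 3.03 in HFT 26 and 2.79 in HF 8. The difference was highest in HF 14 (4.38) and HFT 36 (4.35), whose Ucp1 was 3.7 and 3.8, and lowest in HFT 28 (2.64). Its slope stayed above 0, with a permutation p of at most 0.00683, in every fit in which it was computed. Without all 6 arrays that carried epididymal or urothelial genes the slope was 0.31.

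**Figure D3:**
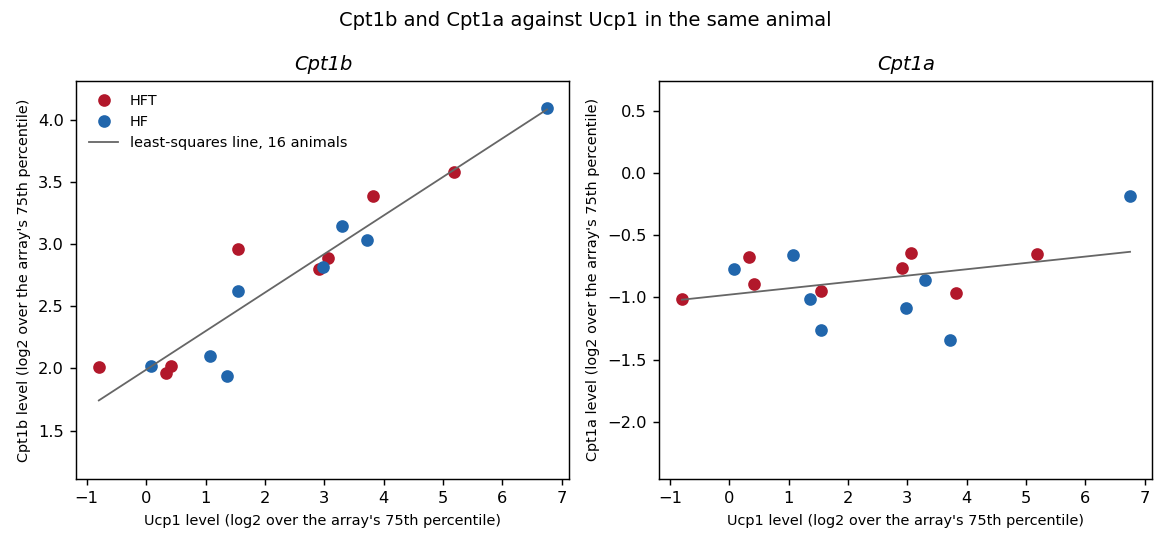
Cpt1b (left) and Cpt1a (right) against Ucp1 in the same animal, all as log2 over the array's 75th percentile, with HFT and HF animals marked and a least-squares line over the 16; both vertical axes span the same number of log2 units. Cpt1b climbs with Ucp1 in both groups (r = 0.943), while Cpt1a lies in a flat band apart from HF 35.

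The 3 acyl-CoA dehydrogenases followed Ucp1 with slopes of 0.18 ± 0.02 for Acadm (limma adjusted p = 0.0051), 0.20 ± 0.03 for Acadl (0.00589) and 0.17 ± 0.03 for Acadvl (0.04; SE each). Pearson's r was 0.906, 0.898 and 0.841, with permutation p of 1e-05, 1e-05 and 4e-05, and rho was 0.865, 0.868 and 0.856. Without the 2 farthest animals r was 0.864, 0.881 and 0.885, and none of the 3 passed in that fit (adjusted p = 0.151, 0.0692 and 0.0521, slopes 0.18, 0.22 and 0.21). With slide as a block none of the 3 passed either (adjusted p = 0.218, 0.114 and 0.325, slopes 0.18, 0.23 and 0.13). Acadm was 3.98 in HFT 22 and 4.46 in HF 35, against 3.11 in HFT 26 and 2.97 in HF 8, so its whole range was 2.79-fold. The call on Acadvl was close to the threshold: its adjusted p was above 0.05 in 15 of the 16 fits that left out 1 animal, with slopes from 0.16 to 0.20. Those on Acadm and Acadl were lost when HF 35 was left out (adjusted p = 0.181 for both, slopes 0.16 and 0.19) and in no other such fit.

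Cpt2 and Hadhb had slopes of 0.17 ± 0.04 and 0.23 ± 0.06 (SE) that did not pass over the array (limma adjusted p = 0.0931 and 0.168). Their r with Ucp1 was 0.787 and 0.708 (permutation p = 0.00024 and 0.00203), and 0.823 and 0.680 without the 2 farthest animals. The probes of Hadha gave different answers. The brighter one had a slope of 0.01 (adjusted p = 0.911, r = 0.110), while the second had 0.12 (adjusted p = 0.227, r = 0.657), and across animals the second went with Hadhb (r = 0.945) where the brighter one did not (r = -0.157). In 1 of 21 alternative fits the second probe passed (limma adjusted p = 0.0408). The difference between the Hadha probes was itself not past the threshold in the main fit (0.11 per log2 unit, 95% interval -0.01 to 0.23, permutation p = 0.0846). It was past it in 3 of 14 alternative fits (lowest permutation p = 0.015), and its sign turned in none of the 14. This contrast was chosen after its values were seen. Ehhadh had a slope of 0.00 (95% interval -0.10 to 0.10; adjusted p = 0.986), and Cpt1b minus Ehhadh rose by 0.31 per log2 unit of Ucp1 (95% interval 0.21 to 0.42; permutation p = 4e-05), a contrast also chosen after its values were seen.

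**Figure D4:**
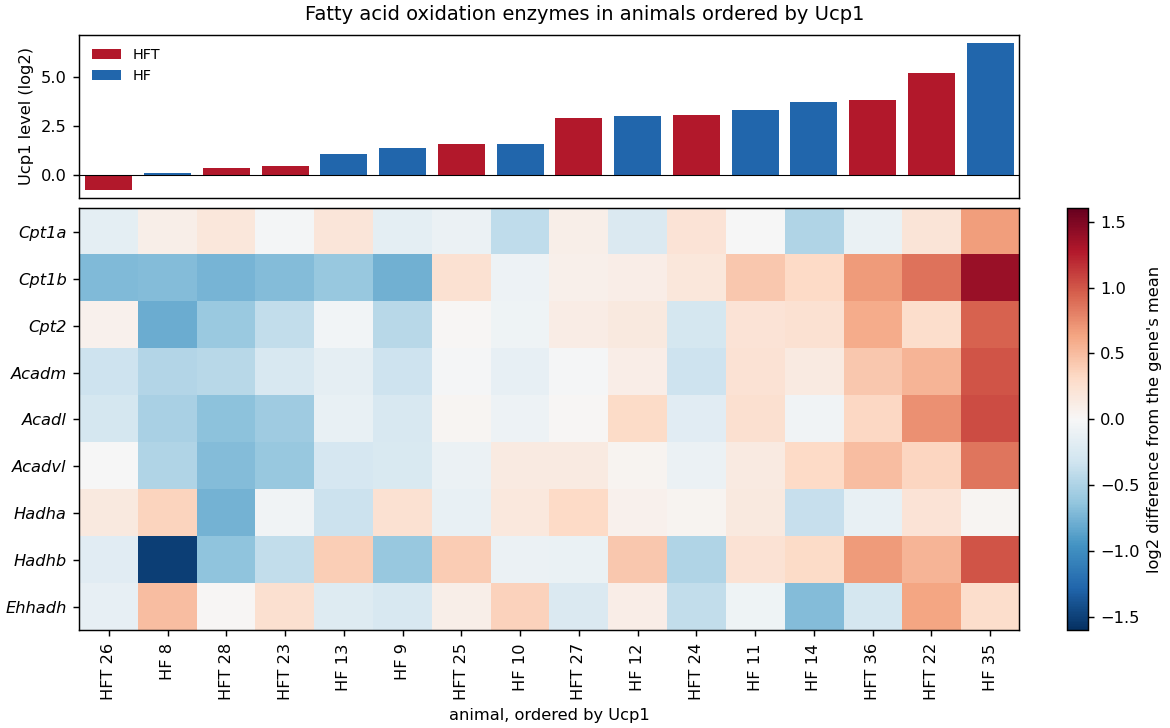
Animals ordered by Ucp1 (upper panel, log2 level, HFT and HF in different colours) with each enzyme's log2 difference from its own mean over the 16 animals (lower panel). Cpt1b, Cpt2, Acadm, Acadl, Acadvl and Hadhb, and Cpt1a as well, are highest in HF 35 at the right, where Ucp1 is 6.75. The brighter Hadha probe, which is the one drawn, and Ehhadh show no such order.

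Between members, correlations over the 16 animals ran from -0.157 (Hadhb with the brighter Hadha probe) to 0.951 (Acadm with Acadl). Both genes of a pair were read on the same arrays. Acadvl correlated at 0.888 with Cpt1b, and Cpt2 at 0.921 with Hadhb. Cpt1a correlated at 0.312 with Cpt1b and at 0.126 with Acadvl, and Ehhadh at 0.0855 with Cpt1b and at -0.0892 with Hadhb. HF 35 was the highest animal for 7 of the 9 members, and HFT 28 and HF 8 were the lowest for 3 each.

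The slopes did not differ between the groups past the threshold. In a fit with a Ucp1 by group term 0 of 21807 probes had an adjusted p under 0.05 (0%) and 394 (1.81%) an unadjusted p under 0.05, of which 0 belonged to the probes that stand for the 9 members. For Cpt1b the slope was 0.30 within HFT animals and 0.34 within HF animals, and for Acadm 0.15 within HFT animals and 0.21 within HF animals. The slopes differed most, HFT minus HF, for Hadhb (-0.14, limma unadjusted p = 0.244) and Cpt2 (-0.12, 0.0962). For Cpt2 r with Ucp1 was 0.588 in HFT animals (exact permutation p = 0.128, n = 8) and 0.945 in HF animals (exact permutation p = 0.000347, n = 8).

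No gene of the lists for other tissues passed for the slope on Ucp1 in limma's fit. This was 0 of 6 tested urothelial genes (3 at an unadjusted p under 0.05, median slope 0.68). It was also 0 of 5 epididymal genes (3, median slope 0.00). For smooth muscle and hepatocyte genes it was 0 of 9 (0, 0.06) and 0 of 14 (0, -0.02). The 3 urothelial genes were Upk3a (slope 1.55, the highest of all tested probes), Upk1a (1.07) and Krt5 (0.66). The 3 epididymal genes were Lcn5 (-0.95), Lcn10 (-0.81) and Adam7 (0.11), so the median hides large slopes of single genes. Slopes were above 0 for 5 of the 6 and for 2 of the 5. Of 14 epididymal genes on the array only 5 passed the filter on dim probes. The counts of 0 therefore do not show that these genes were unrelated to Ucp1. HFT 22, HFT 24 and HF 35, the arrays high for urothelial genes, had Ucp1 levels of 5.18, 3.06 and 6.75. The summed level of the 8 urothelial genes, in units of the 75th percentile, ran from 4.602 to 64.1 in HFT animals and from 4.93 to 60.4 in HF animals, and 3 of the 8 were above background on all 16 arrays. Without these 3 arrays the slopes were 0.33 for Cpt1b, 0.17 for Acadm, 0.18 for Acadl and 0.18 for Acadvl. Their r with Ucp1 over the remaining 13 animals was 0.886, 0.904, 0.814 and 0.762. No member passed in that fit (adjusted p = 0.105, 0.181, 0.282 and 0.282; 6 of 9 at an unadjusted p under 0.05), in which 2 probes of the array did (0.00917%). The arrays high for epididymal genes, HFT 23, HFT 28 and HF 8, had low Ucp1, at 0.42, 0.33 and 0.09; the summed level of the list ran from 0.246 to 20.9 in HFT animals and from 0.325 to 20.9 in HF animals, with Lcn9, Rnase9, Cst8 and Cst11 above background on no array. Without HFT 23, HFT 28 and HF 8 the slopes were 0.30, 0.18, 0.18 and 0.13 for the same 4 genes, and Cpt1b alone passed (adjusted p = 0.00475). Without all 6 arrays r with Ucp1 was 0.838, 0.873, 0.771 and 0.678 for the 4 genes, and Cpt1b had a slope of 0.31 (adjusted p = 0.578, 0 members and 1 probe past the threshold). The summed level of the smooth muscle list ran from 11.4 to 64.5 in HFT animals and from 12.1 to 425.8 in HF animals, with all 9 genes above background on all 16 arrays, and that of the hepatocyte list from 4.58 to 37.6 in HFT animals and from 3.59 to 74.1 in HF animals, with 7 of 15. Without HFT 36, HF 9 and HF 10 the slopes were 0.30, 0.17, 0.20 and 0.16 for Cpt1b, Acadm, Acadl and Acadvl, and Cpt1b alone passed (adjusted p = 0.00105, against 0.0656, 0.0724 and 0.177 for the other 3). The part of these tissues in the slopes was not tested.

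Skeletal muscle also uses Cpt1b. The summed level of 15 muscle genes ran from 1.63 to 13.1 in HFT animals and from 1.65 to 42.1 in HF animals, with 10 of the 15 above background on all 16 arrays and Myh1 on none. Of its 12 tested genes 0 passed for the slope on Ucp1 (2 at an unadjusted p under 0.05). With the muscle median as a covariate the slope of Cpt1b was 0.32 (adjusted p = 2.33e-05), and Cpt2 and Hadhb passed too (adjusted p = 0.0275 and 0.0469).

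Beside the members, the genes of brown fat that moved with Ucp1 were Cox8b, a subunit of cytochrome oxidase (slope 0.84), Cidea, a lipid droplet protein (0.26), Fabp3, a fatty acid binding protein (0.51), Letmd1 (0.18) and Plin5, a lipid droplet protein of oxidative tissue (0.29). These 5 of the 12 tested genes of the brown fat list passed and 7 did not; Elovl3 and Zic1 were above background on no array. Of the adipocyte list 0 of 12 genes passed (0 at an unadjusted p under 0.05), with a median slope of 0.02. The median level of this list per array correlated at 0.358 with Ucp1 and at 0.466 with Cpt1b. It was lowest in HFT 28, HF 8 and HFT 23 (3.36, 3.76 and 3.87), the arrays high for epididymal genes. Whether the share of adipocytes has a part in the slopes was not tested.

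Of the other genes of the pathway only Plin5 passed, for the slope on Ucp1 (limma adjusted p = 0.04). In that fit 11343 of 21807 probes had a slope above 0, and 3039 had an unadjusted p under 0.05. Of 17 further mitochondrial genes 0 passed in either comparison (0 at an unadjusted p under 0.05 for HFT minus HF and 13 for the slope), all 17 slopes were above 0 and their median was 0.10. The largest belonged to Acaa2, the mitochondrial thiolase (0.27, adjusted p = 0.115), Eci1, an enoyl-CoA isomerase (0.19, 0.0922), and Etfdh, which passes the electrons on to ubiquinone (0.17, 0.177). In HFT minus HF the largest differences were -0.34 for Acaa2, -0.26 for Slc25a20, the carnitine-acylcarnitine carrier, and -0.17 for Hadh. Of 16 peroxisomal genes 0 passed in either comparison (3 at an unadjusted p under 0.05 for the slope, 0 for HFT minus HF), with a median slope of 0.05 and 13 of 16 slopes above 0. Pecr (-0.06) had the lowest slope, and the largest slopes were those of Phyh (0.15), Decr2 (0.10) and Crat (0.09). Of 18 regulators and targets, Plin5 passed for the slope, and 9 had an unadjusted p under 0.05 for it. For 15 of the 18 the slope was above 0, with Ucp2 (-0.05) the lowest. None of the 18 passed for HFT minus HF, where Bdh1 (0.48), Ppargc1b (-0.47) and Pdk4 (-0.47) differed most and 3 genes had an unadjusted p under 0.05 (Ppargc1b, Bdh1 and Ppard, the last named after its value was seen).

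The genes most like Cpt1b over the 16 arrays, among 11583 genes outside the member list, were Cidea (r = 0.946), Cox8b (0.944), Ucp1 (0.943) and Lrpprc (0.929). Those most like the mean of the 7 members other than both Cpt1 isoforms were Cidea (0.965), Hadh (0.944), Sucla2 (0.940), Clpx (0.933) and Calr3 (0.931). Cidea headed both lists. Those most like Cpt1a were Flrt3 (0.851), Prrg4 (0.828), Tiam1 (0.807), Cst6 (0.786) and Cd3g (0.779), and none of these 5 stood among the nearest genes of Cpt1b or of the other members.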

How the data were processed

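Total RNA of each animal was labelled with Cy3 and hybridised to a 1-colour Agilent array, per the labels. The spot intensities were deposited as output of Agilent Feature Extraction 10.7.3.1, per the submitters' processing notes, after background subtraction and detrending within each array; per the file headers the arrays were not scaled to each other. The authors also deposited log2 values of unstated normalization; their column medians lay between 7.33 and 7.36, each of the 16 columns correlated best with its own array (r of at least 0.998), and they served as an alternative. Marks of 0 or 1 for a spot above background, not uniform, an outlier or saturated were deposited with the intensities.

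From the processed intensities, log2 values minus each array's 75th percentile over spots that are not controls were computed. Spots marked as not uniform or as outliers were left out, and replicate spots were averaged. Of 30367 probes, 23 were dropped and the 21808 well above background on 4 or more of the 8 HFT or of the 8 HF arrays were kept. Names came from RefSeq (GRCr8) by accession: 18005 probes had a symbol. The probe of highest mean signal stood for a gene. limma 3.58.1 (R 4.3.3; lmFit, eBayes, Benjamini-Hochberg adjustment over all probes, threshold 0.05) compared HFT with HF with no covariate, and fitted each probe on Ucp1 with group as a term. The fits were tested on simulated data. Permutation tests were two-sided. For within-animal contrasts on Ucp1 the slope and the permutation test had no group term, and the interval came from limma with group as a term. Precision is limited by the 16 arrays.

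All 9 members are described whatever their values; of other lists, the genes past the threshold or, with none, the 3 of largest change are named, of the brown fat list the 5 of largest t, and the 5 genes most alike by r, of which 1 is left out of the text. The members and lists were chosen with earlier results of these data known. An array was called high for a tissue when its list median lay over 3 log2 units above the median array. The rule by summed level for epididymal genes, the fit without arrays high for smooth muscle or hepatocyte genes and the contrasts of Cpt1b with Ehhadh and between the Hadha probes were added after seeing the data. Alternatives were other normalizations, filters, slide as a block, array weights, tissue scores as covariates and leaving out animals. Normexp, planned on mean intensities, used the median intensities of the files, with an offset of 50.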

Additional observations from a re-analysis of the deposited data

Results flagged for a closer look

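In HFT animals, the brighter Hadha probe read 1.38 in HFT 28, against 2.02 in the nearest of the other 7 animals. The gap was 0.593 of the group's range, above Dixon's critical value of 0.526 for 8 samples. Such a gap turns up by chance in about 1 in 20 groups, and 24 groups were examined (12 probes, HFT and HF). HFT 28 is also 1 of the 3 arrays high for epididymal genes. Whether this has a part in the value was not tested. The brighter Hadha probe has 1 spot on the array and the second has 2. Among HFT animals the second probe was also lowest in HFT 28, at 1.342, but HFT 24 was close at 1.415.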

How the results depend on the processing

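No paired analysis was possible because the labels of HFT and HF share no replicate numbers. In HFT minus HF, 0 members passed in every fit run, and 0 probes of the array did except without HFT 23, HFT 28 and HF 8, where 1 did. The slope of Cpt1b minus Cpt1a kept its sign and its side of the threshold in every fit in which it was computed. Leaving out each animal gave 0 called probes and 0 members for HFT minus HF, 5 (without HF 35) to 69 probes (without HFT 26) and 1 (without HF 35) to 5 members (without HFT 26) for the slope on Ucp1, slopes of Cpt1b minus Cpt1a from 0.24 to 0.31, and Cpt1a minus Cpt1b, HFT minus HF, from -0.02 (without HFT 28) to 0.23. With HFT 23, HFT 25, HFT 28, HF 8, HF 10 or HF 11 left out, 13 to 18 probes passed. The cause of these changes was not tested.

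The slope on Ucp1, with 28 probes and 4 members called, gave 50 probes with the authors' deposited log2 values, 17 with no filter on dim probes (more probes adjusted for), 46 with no group term, 69 with the muscle score as a covariate and 18 without HFT 28. Probes and members were 5 and 1 (Cpt1b) with slide as a block, 2 and 0 without the urothelial arrays, 2 and 0 without these and HFT 28, 13 and 1 without HFT 23, HFT 28 and HF 8, 6 and 1 without HFT 36, HF 9 and HF 10, 1 and 0 without all 6, 7 and 1 with both tissue scores as covariates, 6 and 1 without the 2 farthest animals, 1 and 0 within HFT and 2 and 0 within HF, where fewer animals entered.

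Signs turned only for values that passed no threshold. With the percentile over probes above background on all arrays turned were slopes of Ehhadh -0.0009. With normexp turned were slopes of Ehhadh -0.0040. With the authors' deposited log2 values turned were slopes of Hadha -0.0013. With array weights turned were differences of Hadha 0.0404, Ehhadh 0.015 and slopes of Ehhadh -0.0087. Without HFT 28 (median rule) turned were differences of Cpt1b 0.083, Cpt2 0.0300, Hadha 0.023, Hadhb 0.048 and Cpt1a minus Cpt1b -0.023. The slope of Hadha turned there too, at -0.011. Without the 3 urothelial arrays turned were differences of Cpt2 0.072, Hadhb 0.081 and slopes of Cpt1a -0.042, Hadha -0.012, Ehhadh -0.11. Without HFT 28 and the 3 urothelial arrays turned were differences of Cpt1b 0.11, Cpt2 0.18, Acadm 0.046, Acadvl 0.036, Hadhb 0.20 and Cpt1a minus Cpt1b -0.024. The slopes that turned there were Cpt1a -0.033, Hadha -0.046 and Ehhadh -0.12. Without HFT 23, HFT 28 and HF 8 turned were differences of Cpt1b 0.11, Hadha 0.087, Ehhadh 0.016 and Cpt1a minus Cpt1b -0.027. Without all 6 turned were differences of Cpt1b 0.18, Cpt2 0.19, Acadm 0.037, Acadl 0.013, Acadvl 0.11, Hadha 0.068, Hadhb 0.0899 and Cpt1a minus Cpt1b -0.062. The slopes that turned without all 6 were Cpt1a -0.014, Hadha -0.0299 and Ehhadh -0.065. Without HFT 36, HF 9 and HF 10 turned was the difference of Ehhadh 0.049. With both tissue scores as covariates turned were differences of Hadhb 0.0303 and slopes of Hadha -0.052, Ehhadh -0.016. Without the 2 farthest animals turned were slopes of Cpt1a -0.025, Ehhadh -0.052. Within HF turned were slopes of Hadha -0.034, Ehhadh -0.019. Leaving out 1 animal gave differences from -0.15 to 0.17 for Cpt1b, -0.17 to 0.079 for Cpt2, -0.19 to 0.031 for Acadm, -0.14 to 0.023 for Hadha, -0.26 to 0.0995 for Hadhb and -0.11 to 0.063 for Ehhadh, and slopes from -0.0031 to 0.0698 for Cpt1a, -0.011 to 0.033 for Hadha and -0.044 to 0.031 for Ehhadh.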
